A study of Mus musculus with 10 samples.

Results

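The cardiac myosin genes were examined in hearts of male mice whose dams had received anti-Müllerian hormone or vehicle during pregnancy. The set held 9 genes, picked by name from the 55335 Ensembl genes of the deposited table, and all 9 were found. It comprised the heavy chain genes Myh6, Myh7 and Myh7b, the light chain genes Myl2, Myl3, Myl4 and Myl7, the light chain kinase gene Mylk3, and Mhrt, a non-coding RNA antisense to Myh7. The offspring fell into 5 prenatal AMH (PAMH) samples, from dams given the hormone, and 5 control samples, from dams given phosphate-buffered saline. All 10 samples were labelled as wild type, male heart. The series title describes the hearts as those of polycystic ovary syndrome mice. The labels used here give no strain, age at collection, hormone dose or part of the heart, and do not tie samples to animals or litters. The p-values therefore speak of the variation among these 10 samples, which may be technical or shared within litters.

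A sarcomeric myosin is a pair of heavy chains, each carrying the motor and holding an essential and a regulatory light chain on its neck. The adult mouse ventricle uses almost only the fast alpha heavy chain (Myh6) with the ventricular light chains Myl3 (essential) and Myl2 (regulatory). The slow beta heavy chain (Myh7) prevails before birth and is re-expressed in stressed hearts, and the atria use Myl4 and Myl7 in place of Myl3 and Myl2. Mhrt is transcribed between and across the paired heavy chain genes in the mouse, where its RNA binds the chromatin remodeller Brg1. The introns of Myh6, Myh7 and Myh7b carry microRNA genes that take part in the switch between heavy chains.

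The RNA was abundant for 3 members, intermediate for 3 others and low for the rest. Over the 10 samples FPKM (fragments per kilobase of transcript, scaled to mapped fragments) averaged 1889 for Myl3, 1872 for Myl2 and 1475 for Myh6, 3 genes whose ranges overlapped. Mylk3 followed at 75.3 FPKM with a range that met no other. Myh7 and Mhrt averaged 23.4 and 16.8 FPKM with overlapping ranges, and Myh7b averaged 3.90 FPKM. Myl7 and Myl4 stood last at 0.199 and 0.189 FPKM.

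The heavy chain genes were neighbours on chromosome 14 of GRCm38. Myh7 (ENSMUSG00000053093) lies at 54970684 to 54994626 and Myh6 (ENSMUSG00000040752) at 54941921 to 54966927, both on the minus strand with 3757 bases between them. Mhrt (ENSMUSG00000097652) runs the other way, from 54968678 to 54974349 on the plus strand. Its start is 1751 bases from that of Myh6, and it reaches into the 3′ part of Myh7. The microRNA hairpin Mir208b sits in intron 31 of Myh7, Mir208a in intron 29 of Myh6, and Mir499 in intron 19 of Myh7b on chromosome 2 (155611212 to 155634307). None of the 3 hairpins overlaps an exon of its host.

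**Figure D1:**
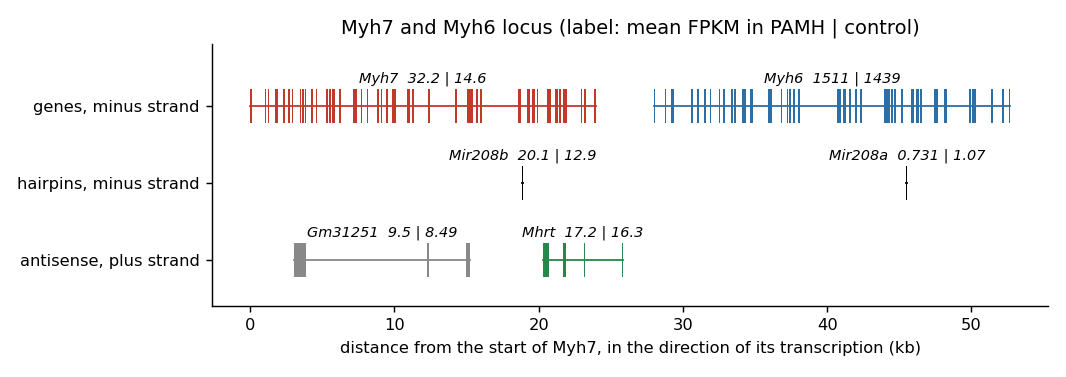
Exons (boxes) and introns (lines) of Myh7, Myh6, the hairpins in their introns and the antisense genes, by distance in kb from the start of Myh7 along its direction of transcription; labels give mean FPKM in PAMH and control hearts (n = 5 each). Myh7 averaged 32.2 FPKM in PAMH hearts and 14.6 FPKM in control hearts, while the labels of the neighbours Myh6 and Mhrt are close between groups.

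The mature microRNAs of these introns are shown because the host genes behaved differently while their microRNAs share or nearly share a seed (bases 2 to 8, in capitals; RefSeq sequences on GRCm38.p6, 5′ to 3′).
mmu-miR-208a-3p, host Myh6: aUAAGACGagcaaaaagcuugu
mmu-miR-208b-3p, host Myh7: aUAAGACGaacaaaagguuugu
mmu-miR-499-5p, host Myh7b: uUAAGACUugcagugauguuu
The pair in Myh6 and Myh7 has the same seed, and no other of the 1738 mature mouse microRNAs in the table used has it. They differ at 3 positions outside the seed (G10A, A16G and C18U, the base of miR-208a-3p first, counted from the 5′ end). The seed of miR-499-5p differs from theirs at 1 position (G8U). The libraries did not measure these mature RNAs.

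Windows of 300 bases around the annotated starts of the 3 chromosome 14 genes are shown because these neighbours differed in their change. Each runs from 250 bases before the start to 50 after it (RefSeq starts, which can differ from the GENCODE ends of the genes given above, GRCm38.p6, 5′ to 3′ on the gene's strand), and capitals mark CATTCC or its complement GGAATG, the core of the MCAT element that TEAD factors bind.
Myh7, chr14:54994577-54994876, minus strand: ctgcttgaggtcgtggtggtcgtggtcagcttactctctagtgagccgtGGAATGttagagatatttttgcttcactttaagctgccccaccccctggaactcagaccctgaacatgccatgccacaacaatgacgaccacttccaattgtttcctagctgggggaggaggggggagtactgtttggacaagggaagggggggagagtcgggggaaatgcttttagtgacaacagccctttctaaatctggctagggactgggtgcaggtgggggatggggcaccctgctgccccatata
Myh6, chr14:54966558-54966857, minus strand: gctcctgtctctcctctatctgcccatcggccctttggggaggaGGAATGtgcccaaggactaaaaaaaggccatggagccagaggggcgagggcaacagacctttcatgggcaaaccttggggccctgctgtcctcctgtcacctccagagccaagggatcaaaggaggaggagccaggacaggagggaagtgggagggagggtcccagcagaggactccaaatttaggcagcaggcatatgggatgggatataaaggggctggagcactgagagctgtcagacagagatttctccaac
Mhrt, chr14:54968537-54968836, plus strand: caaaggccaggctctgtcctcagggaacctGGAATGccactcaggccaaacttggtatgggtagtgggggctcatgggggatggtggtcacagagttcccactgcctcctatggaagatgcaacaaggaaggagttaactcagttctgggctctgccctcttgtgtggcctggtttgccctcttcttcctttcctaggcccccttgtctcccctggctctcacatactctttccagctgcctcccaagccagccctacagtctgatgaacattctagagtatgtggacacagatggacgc
The motif begins at -206 from the start in the Myh6 window, at -220 in that of Mhrt and at a similar distance in that of Myh7. Both strands were searched. Of 32851 mouse windows of this length 14.7% hold the motif, and 6 of the 12 windows listed for the 9 genes do. The half-site AGGTCA of the thyroid hormone receptor is in 16.3% of all windows and in 2 of these 12, one of Myh7b and one of Myl2, and in none of the 3 windows printed. Both Myl2 windows are set on RefSeq starts (122092724 and 122093189) that lie outside the Myl2 gene of GENCODE, before its first base at 122100951. A second Myh7 start is listed downstream, whose window begins inside the one printed and lacks CATTCC. That motif is in the printed windows of Myh7, Myh6 and Mhrt alike, and its part in the levels of these genes was not tested. The Myh6 window is set on a RefSeq start at 54966607, inside the gene as GENCODE bounds it, so its motif lies within those bounds.

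The FPKM summed to between 654350 and 717453, and how many reads lie behind them is unknown. Genes of the mitochondrial genome, with their nuclear copies on chromosome 1, took 73.7% (PAMH replicate 4) to 79.7% (PAMH replicate 3) of each sum. The share was 74.8%, 76.4%, 79.7%, 73.7% and 77.2% in PAMH replicates 1 to 5 and 77.6% to 79.6% in control hearts, so that every PAMH sample but replicate 3 lay below all controls. The FPKM left for other genes summed to 144974 to 177167 in PAMH and 145319 to 154970 in control hearts. PAMH replicate 4 stood apart, with the fewest genes above 0 (16113, against 18037 to 21097 in the other 9 samples) and the highest hemoglobin and Alas2 sum (863 FPKM, against 97.3 to 437 FPKM).

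The chamber makeup of the samples was read from the light chains. The ventricular markers Myl2 and Myl3 were at 1423 FPKM or more in every sample. The atrial essential light chain gene Myl4 (chromosome 11, 104550663 to 104595753) had 0.201, 0.117, 0.167, 0.295 and 0.0914 FPKM in PAMH replicates 1 to 5. In control replicates 1 to 5 it had 0.159, 0.229, 0.167, 0.158 and 0.306 FPKM. The groups overlapped and no sample reached 1 FPKM. The atrial regulatory light chain gene Myl7 (chromosome 11, 5896637 to 5898782) had 1.02 FPKM in PAMH replicate 3 and 0.962 FPKM in PAMH replicate 5, and was listed at 0 in the other 3 PAMH and all 5 control samples.

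The other atrial markers ranged from near 0 to over 100 FPKM. Sln, the atrial regulator of the calcium pump, was listed at 0 in 9 of 10 samples, as was the atrial growth factor gene Bmp10, and Mybphl, an atrial thick filament protein gene, in 7 of 10. Nppa, which the stressed ventricle also expresses, made up most of the summed level of the 15 atrial markers, which ran from 114 to 251.7 FPKM in PAMH hearts and from 78.3 to 162 FPKM in control hearts. Of these 15 markers 6 passed the filter, of which Kcnj5, a potassium channel gene, was higher in PAMH hearts (10.7 ± 1.42 FPKM, against 7.73 ± 0.599 FPKM in control hearts, SD, n = 5 each) and 5 did not pass the test. Kcnj5 lost its call in 9 of 19 alternatives, among them 3 of 4 other scalings and the omission of PAMH replicate 1, 2 or 5 or of control replicate 4 or 5 (limma adjusted p up to 0.160). Over all tested genes 4.95% were higher. The other potassium channel genes tested had groups that did not overlap, in opposite directions. Such a separation was shown by 8.44% of all tested genes in either direction. Kcna5 had 7.79 ± 0.571 FPKM in PAMH and 9.44 ± 0.679 FPKM in control hearts (SD, n = 5 each; limma adjusted p = 0.0647), and passed as lower under 3 of 4 other scalings. Kcnj3 had 4.06 ± 0.375 FPKM in PAMH and 3.39 ± 0.205 FPKM in control hearts (SD, n = 5 each; limma adjusted p = 0.1104). Stard10 and Tbx5 averaged 7.10 and 2.33 FPKM over the 10 samples, and 9 of the 15 markers were below 1 FPKM on average. The label says heart, and the light chain RNA was almost all that of ventricle. Neither Myl4 nor Myl7 passed the filter of a mean of 1 FPKM, so 7 of the 9 genes were tested.

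**Figure D2:**
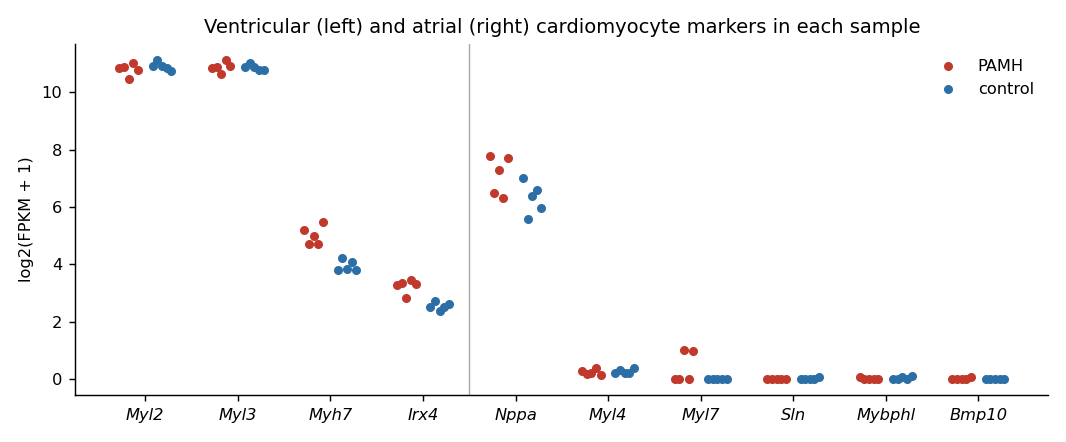
Level of 4 ventricular and 6 atrial cardiomyocyte markers in each sample as log2(FPKM + 1), PAMH on the left and control on the right of each gene. Myl2 and Myl3 are the highest markers shown, and of the 6 atrial markers shown Nppa is the one far above 0; Kcnj5, Kcna5, Stard10, Kcnj3 and Tbx5, which averaged 2.33 to 9.23 FPKM, are not drawn.

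Of the 7 genes tested, Myh7 was higher in PAMH hearts and the other 6 did not pass. Among all 9439 genes tested, 467 were higher and 117 lower (limma on log2(FPKM + 1), adjusted p under 0.05), which is 6.19% in either direction, 4.95% higher and 1.24% lower. The split was 216 higher and 210 lower with each sample rescaled to the same sum of non-mitochondrial genes, 218 and 212 with median ratio scaling, and 234 and 246 with quantile normalization. Myh7 ranked 17th from the highest log2 fold change and 34th by p among all tested genes.

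The slow heavy chain gene Myh7 about doubled. It had 35.5, 25.4, 31.0, 25.2 and 43.7 FPKM in PAMH replicates 1 to 5. In control replicates 1 to 5 it had 13.0, 17.7, 13.5, 15.9 and 13.0 FPKM. Every PAMH sample lay above every control sample, a separation that 8.44% of all tested genes showed in either direction, 6.74% with PAMH higher and 1.71% with PAMH lower. The means were 32.2 ± 7.73 FPKM in PAMH and 14.6 ± 2.10 FPKM in control hearts (SD, n = 5 each), a 2.2-fold difference. On the log2(FPKM + 1) scale the fold change was 1.07 (SE 0.15, 95% interval 0.75 to 1.38, limma adjusted p = 0.00223). It passed under each of the 19 alternatives run (log2 fold change 0.94 to 1.14, limma adjusted p up to 0.0252). PAMH replicate 5 was the highest sample and PAMH replicates 2 and 4 were the lowest of their group.

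Myh6, the fast adult heavy chain gene, did not pass. PAMH replicates 1 to 5 had 1551, 1669, 1198, 1861 and 1277 FPKM, and control replicates 1 to 5 had 1272, 1809.9, 1378, 1384 and 1353 FPKM. The groups overlapped over most of their range, with means of 1511 ± 275 and 1439 ± 212 FPKM in PAMH and control hearts (SD, n = 5 each). The log2 fold change was 0.062 (95% interval -0.21 to 0.34, limma adjusted p = 0.800), and its sign turned under 2 of 4 other scalings. The interval holds differences of either sign, and its upper end is below the lower end of that of Myh7.

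The ratio of the heavy chains within a sample does not change when all values of the sample are multiplied by 1 factor, though quantile normalization can change it. Myh7 amounted to 2.29%, 1.52%, 2.59%, 1.36% and 3.42% of Myh6 in PAMH replicates 1 to 5. In control replicates 1 to 5 the ratio was 1.02%, 0.979%, 0.977%, 1.15% and 0.962%. All 5 PAMH samples lay above all 5 control samples. The difference in the mean log2 ratio was 1.06 (SE 0.25), a 2.08-fold change (exact two-sided permutation p = 0.00794, the smallest that 5 against 5 samples can give; adjusted p = 0.0198 over 5 ratios). As a share of both heavy chains Myh7 was 2.18% ± 0.801 in PAMH hearts and 1.01% ± 0.0741 in control hearts (SD, n = 5 each), so Myh6 remained the main heavy chain RNA in every sample. Percentages of 1 gene to another also rest on how transcript values were combined into gene values, which is not given.

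**Figure D3:**
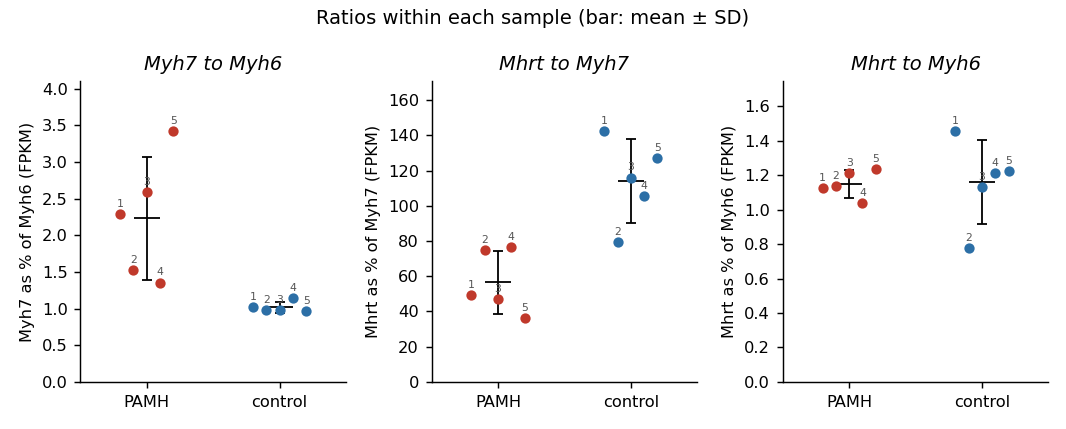
Myh7 as a percentage of Myh6, Mhrt as a percentage of Myh7 and Mhrt as a percentage of Myh6 (FPKM ratios) in each sample, numbered by replicate, with mean and SD (n = 5 each). The PAMH samples do not overlap the control samples in the 2 ratios that contain Myh7, and overlap them in the third.

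The spread of the ratio was wider in PAMH hearts. Its SD on the log2 scale was 0.55 in PAMH and 0.10 in control samples, a difference that was not tested. The low PAMH samples were replicates 2 and 4, which had the lowest Myh7 and the highest Myh6 of the group. The same 2 samples had the lowest Nppa of the group, at 89.4 and 78.4 FPKM, against 217, 155 and 210 FPKM in PAMH replicates 1, 3 and 5. The controls did not share this pattern. Control replicate 2, the highest control in Myh7, had the lowest Nppa of the controls, at 46.5 FPKM. Control replicates 1 and 5, both at 13.0 FPKM for Myh7, had 129 and 61.9 FPKM of Nppa. A link between the 2 genes was not tested. In control hearts the ratio stayed within 0.962% and 1.15% although Myh6 ranged from 1272 to 1809.9 FPKM, and control replicate 2 was highest in both genes.

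Myh7 and Myh6 are close copies. Their coding sequences were identical at 91.8% of 5802 aligned bases, and 22.6% of the 50-base and 11.4% of the 100-base stretches of the Myh7 transcript also occur in that of Myh6. The labels do not say how reads that match both were counted, and the part of such reads in the level of Myh7 was not tested. Myh7 has 8 and Myh6 has 7 annotated transcripts, and these were not measured separately. No stretch of 50 bases is shared between Myh7 and Myh7b, between Myl2 and Myl7 or between Myl3 and Myl4.

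Mhrt, the antisense RNA, did not pass. It had 17.5, 18.9, 14.5, 19.3 and 15.8 FPKM in PAMH replicates 1 to 5 and 18.5, 14.1, 15.6, 16.7 and 16.5 FPKM in control replicates 1 to 5. The groups overlapped, with means of 17.2 ± 2.04 and 16.3 ± 1.62 FPKM in PAMH and control hearts (SD, n = 5 each; log2 fold change 0.071, 95% interval -0.13 to 0.28, limma adjusted p = 0.687). The sign of its change turned under 3 of 4 other scalings.

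Relative to Myh7, Mhrt was lower in PAMH hearts. Mhrt amounted to 49.2%, 74.6%, 46.8%, 76.4% and 36.2% of Myh7 in PAMH replicates 1 to 5, and to 142%, 79.6%, 116%, 106% and 127% in control replicates 1 to 5. No PAMH sample reached the lowest control sample, though PAMH replicates 2 and 4 came close to control replicate 2. The log2 ratio differed by -1.04 (SE 0.25, exact two-sided permutation p = 0.00794, adjusted p = 0.0198 over 5 ratios). This ratio contains the Myh7 values and Mhrt itself did not pass, so it is not a result separate from that of Myh7. Relative to Myh6, Mhrt was 1.15% ± 0.0793 in PAMH and 1.16% ± 0.245 in control hearts (SD, n = 5 each; log2 difference 0.012, with an exact permutation p and an adjusted p of 0.905).

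The antisense values carry a limit. Exons of Mhrt share 484 bases with exons of Myh7 on the other strand, 39.9% of the exonic bases of Mhrt and 5.62% of those of Myh7. A second antisense gene, Gm31251, shares 523 bases, 41.9% of its exons, and had 9.50 ± 1.75 and 8.49 ± 1.91 FPKM in PAMH and control hearts (SD, n = 5 each; limma adjusted p = 0.585). The labels give no strand setting for the counting, so reads from Myh7 and from these genes cannot be told apart where they overlap.

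The hairpin genes in the introns were listed with values of their own. Mir208b, inside Myh7, had 17.3, 15.2, 18.3, 35.8 and 13.8 FPKM in PAMH replicates 1 to 5 and 14.7, 13.0, 10.7, 11.5 and 14.8 FPKM in control replicates 1 to 5. PAMH replicate 5 lay within the control range, the other 4 lay above it, and PAMH replicate 4, the lowest of its group for Myh7, was the highest (log2 fold change 0.52, limma adjusted p = 0.146, and 0.30 with a limma adjusted p of 0.118 without PAMH replicate 4). Mir208a, inside Myh6, had at most 1.65 FPKM, and Mir499 was listed at 0 in all 10 samples. Whether these values came from hairpins or from unspliced host RNA was not tested.

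Myh7b, the third heavy chain gene and the host of Mir499, is a minor cardiac myosin gene. It had 4.04, 3.21, 4.63, 2.54 and 3.25 FPKM in PAMH replicates 1 to 5 and 4.54, 2.85, 3.63, 5.30 and 4.99 FPKM in control replicates 1 to 5. The groups overlapped, with control replicates 4 and 5 highest (log2 fold change -0.21, 95% interval -0.54 to 0.12, limma adjusted p = 0.424).

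The ventricular light chain genes did not pass. Myl2, the regulatory chain (chromosome 5, 122100951 to 122113472), had 1859.7, 1886, 1423, 2078 and 1779 FPKM in PAMH replicates 1 to 5. In control replicates 1 to 5 it had 1952, 2239, 1946, 1832 and 1721 FPKM. PAMH replicate 3 was the lowest and the groups overlapped (log2 fold change -0.11, 95% interval -0.32 to 0.11, limma adjusted p = 0.545). Myl3, the essential chain (chromosome 9, 110741861 to 110769798), had 1841, 1901, 1576, 2242 and 1921 FPKM in PAMH replicates 1 to 5 and 1911, 2059, 1891, 1769.8 and 1775 FPKM in control replicates 1 to 5. Its PAMH range enclosed the control range (log2 fold change 0.0046, 95% interval -0.18 to 0.19, limma adjusted p = 0.981), and its sign turned under 2 of 4 other scalings.

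These abundant members moved with the scale of the sample. PAMH replicate 4 was highest of its group and PAMH replicate 3 lowest for Myh6, Myl2 and Myl3 alike, and the same samples had the lowest and the highest mitochondrial share. With each sample rescaled to the same sum of non-mitochondrial genes, the coefficient of variation among PAMH samples was 7.45% for Myl2, against 13.3% in the deposited values. For Myl3 it was 6.18%, against 12.5%, and for Myh6 12.9%, against 18.2%. That of Myh7 was 25.7%, against 24.02%, so the spread of Myh7 among PAMH hearts did not shrink with this scaling. On that scale Myl2 averaged 1729 ± 129 FPKM in PAMH and 2017 ± 151 FPKM in control hearts (SD, n = 5 each), and it did not pass under any alternative (limma adjusted p at least 0.106).

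**Figure D4:**
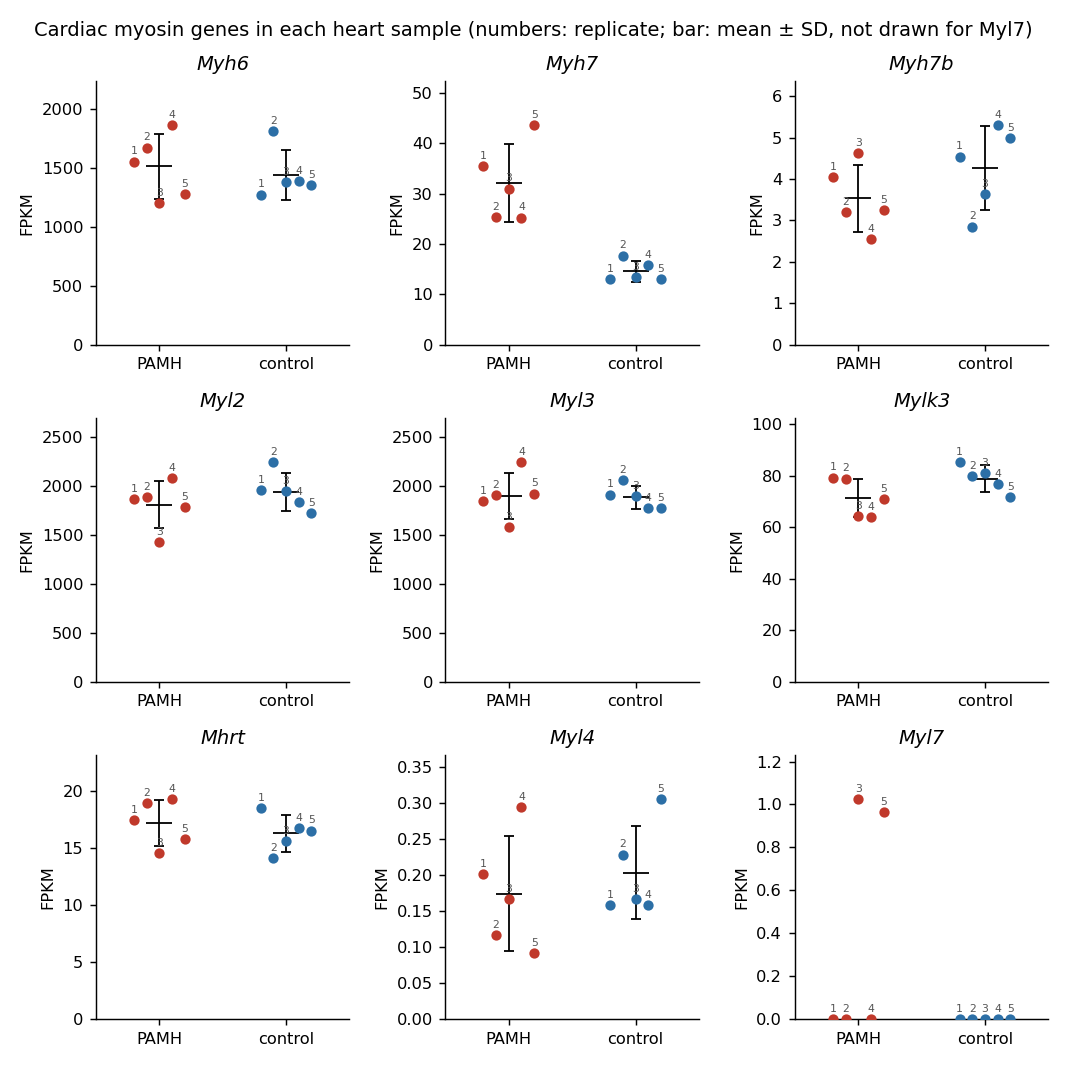
FPKM of each of the 9 genes in every sample, numbered by replicate, PAMH left of control, with mean and SD (n = 5 each; no mean for Myl7, listed at 0 in 8 samples). Myh7 is the gene whose PAMH samples, 25.2 to 43.7 FPKM, all lie above the control samples, 13.0 to 17.7 FPKM.

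Mylk3, the cardiac kinase that phosphorylates the regulatory light chain (chromosome 8, 85324303 to 85386345), did not pass. It had 79.3, 79.0, 64.4, 64.1 and 70.9 FPKM in PAMH replicates 1 to 5 and 85.4, 79.96, 81.1, 76.7 and 71.8 FPKM in control replicates 1 to 5. PAMH replicates 3, 4 and 5 lay below all controls and the others overlapped them (log2 fold change -0.14, 95% interval -0.32 to 0.03, limma adjusted p = 0.301). Its sign was the same under all 19 alternatives, none of which passed (limma adjusted p at least 0.0870). With equal non-mitochondrial sums Mylk3 averaged 69.0 ± 8.22 FPKM in PAMH and 82.3 ± 4.98 FPKM in control hearts (SD, n = 5 each). The kinase stood at 4.01% ± 0.552 of its substrate Myl2 in PAMH and 4.09% ± 0.305 in control hearts (SD, n = 5 each), with an exact permutation p of 0.746 (adjusted p = 0.905). The low ratio of Myl4 to Myl3 gave no call either, at 0.00911% ± 0.00352 in PAMH and 0.0109% ± 0.00371 in control hearts (exact permutation p = 0.405, adjusted 0.675).

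Genes that act with the myosins were taken from lists. Beside the counts of calls in each list, 4.95% of all tested genes were higher and 1.24% lower. Of 11 tested genes of light chain kinases, phosphatase and calmodulin none passed, with a median log2 fold change of 0.12, where that of all tested genes was 0.07. Calm2, a gene for calmodulin, the calcium sensor of the kinase, averaged 37.8 ± 2.41 and 32.5 ± 3.92 FPKM in PAMH and control hearts (SD, n = 5 each; limma adjusted p = 0.147).

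Sarcomere partners were mostly without a call. In the thick filament and M-band list 1 of 14 tested genes was lower and 13 did not pass (median log2 fold change -0.04). The 1 was Trim63, a ubiquitin ligase gene of the sarcomere whose protein degrades thick filament proteins, at 37.5 ± 3.53 FPKM in PAMH and 52.2 ± 3.96 FPKM in control hearts (SD, n = 5 each; log2 fold change -0.47, limma adjusted p = 0.00771). None of 13 thin filament genes passed (median 0.08). The smallest p there were those of Lmod3 and Lmod2, leiomodins that lengthen actin filaments, with log2 fold changes of 0.29 and -0.26 (limma adjusted p = 0.0997 and 0.103). Lmod2 passed as lower under 3 of 4 other scalings.

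Other myosins did not pass. Of 11 other heavy chain genes 4 were tested, with a median log2 fold change of -0.09, and the non-muscle genes Myh10 and Myh9 had the smallest p (limma adjusted p = 0.293 and 0.455). The skeletal heavy chain genes Myh1, Myh2, Myh3, Myh4 and Myh8 were each listed at 0 in at least 8 of 10 samples. Of 8 other light chain genes 5 were tested, with a median of 0.03, and Myl6 and Myl12b had the smallest p (limma adjusted p = 0.608 and 0.914). Myl12b has a close copy in Myl12a and is uncertain.

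Factors that act on the myosin genes included 2 that rose. Of 21 tested regulators Srf and Nkx2-5 were higher and 19 did not pass (median log2 fold change 0.07, equal to that of all tested genes to 2 decimals). Over all tested genes 4.95% were higher. Srf, serum response factor, had 29.5, 36.4, 25.0, 38.8 and 29.9 FPKM in PAMH replicates 1 to 5 and 20.9 to 23.2 FPKM in control hearts (log2 fold change 0.51, SE 0.11, limma adjusted p = 0.0161). Nkx2-5, a cardiac homeobox factor, had 29.8, 33.6, 22.2, 42.4 and 27.5 FPKM in PAMH replicates 1 to 5 and 18.1 to 20.3 FPKM in control hearts (log2 fold change 0.63, SE 0.13, limma adjusted p = 0.0181). Both genes had every PAMH sample above every control sample, a separation that 6.74% of all tested genes showed with PAMH higher. For both, PAMH replicate 4 was highest and PAMH replicate 3 lowest. The same held for the sum of non-mitochondrial FPKM and for Myh6, Myl2 and Myl3. The part of these factors in the level of Myh7 was not tested. Both kept their calls under 4 of 4 other scalings, and over all 19 alternatives Srf passed in 18 and Nkx2-5 in 17. Nkx2-5 lost its call without control replicate 5, and both lost it with no filter on low values (limma adjusted p up to 0.0711). The thyroid hormone receptor gene Thra, whose protein activates Myh6 and represses Myh7, was named after its values were seen and had 11.1 ± 1.97 and 11.6 ± 0.847 FPKM in PAMH and control hearts (SD, n = 5 each; limma adjusted p = 0.687).

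Of 7 tested genes of thyroid hormone handling 1 was higher and 6 did not pass (median -0.06). This was Slc16a10, a transporter gene for aromatic amino acids and thyroid hormone, at 2.77 ± 0.362 FPKM in PAMH and 1.91 ± 0.175 FPKM in control hearts (SD, n = 5 each; log2 fold change 0.37, limma adjusted p = 0.0235). It lost its call in 7 of 18 alternatives, among them without PAMH replicate 1 or 5 and without control replicate 3, 4 or 5 (limma adjusted p up to 0.0824).

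**Figure D5:**
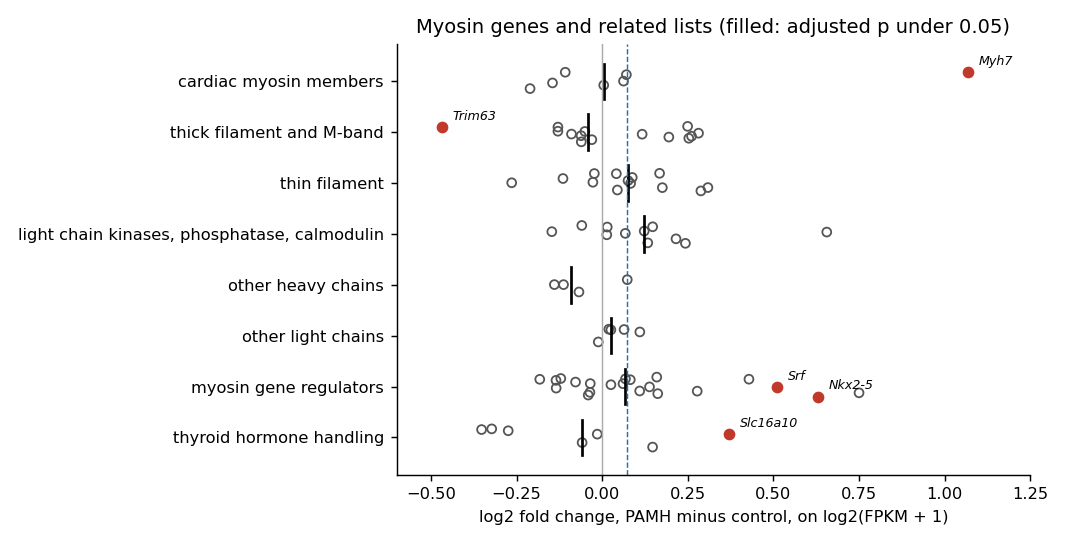
Log2 fold change on log2(FPKM + 1), PAMH minus control, of each tested gene of the cardiac myosin set and of 7 related lists; filled points passed limma at an adjusted p under 0.05, the black bar is the list's median and the dashed line the median of all tested genes, 0.07. Myh7 at 1.07 is the farthest point from 0, and Trim63, Srf, Nkx2-5 and Slc16a10 are the other filled points.

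Markers of other cells were read beside these results, since in a whole tissue fewer cells of a type and less RNA per cell cannot be told apart. Of 8 tested ventricular markers 4 were higher, Myh7 itself with the LIM protein gene Fhl2, the ventricular transcription factor gene Irx4 and Mlf1, and 4 did not pass (median log2 fold change 0.36). Beside this count and those of the lists that follow, 4.95% of all tested genes were higher and 1.24% lower. Irx4 had 8.58 ± 1.501 FPKM in PAMH and 4.89 ± 0.568 FPKM in control hearts (SD, n = 5 each), and the call of Mlf1 was lost in 9 of 19 alternatives, among them 3 of 4 other scalings and the omission of PAMH replicate 1 or 5 or of control replicate 3, 4 or 5 (limma adjusted p up to 0.276). Skeletal muscle, which uses Myh7 in slow fibres, had 4 of its 12 markers tested and none called. Their sum was 13.0 to 20.1 FPKM in PAMH and 15.5 to 18.1 FPKM in control hearts. The conduction system had 1 of 9 markers tested, Hcn4, which did not pass (sums 3.34 to 4.60 FPKM in PAMH and 3.05 to 3.51 FPKM in control hearts).

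The smooth muscle sum was 444 to 545 FPKM in PAMH and 350 to 442 FPKM in control hearts, with 1 of 7 tested markers higher (Acta2, at 82.5 ± 20.7 FPKM in PAMH and 32.1 ± 5.95 FPKM in control hearts, SD, n = 5 each), and most of the sum was Des, which cardiomyocytes also express. Endothelial markers summed to 96.1 to 110.3 FPKM in PAMH and 110.1 to 147 FPKM in control hearts, with 1 of 8 lower (Cldn5, at 3.66 ± 0.906 FPKM in PAMH and 7.51 ± 0.797 FPKM in control hearts, SD, n = 5 each; log2 fold change -0.88, limma adjusted p = 0.00200). Of 8 macrophage markers 1 was higher (Cd68, lost in 6 of 18 alternatives, among them 3 of 4 other scalings and the omission of control replicate 3 or 4, with a limma adjusted p up to 0.0987), and of 8 fibroblast and 5 erythroid markers none passed. Fibroblast Col3a1, at 10.5 ± 1.55 FPKM in PAMH and 13.5 ± 1.44 FPKM in control hearts (SD, n = 5 each), passed as lower under 3 of 4 other scalings and without PAMH replicate 4. Endothelial Pecam1, at 15.2 ± 1.53 FPKM in PAMH and 17.99 ± 1.37 FPKM in control hearts (SD, n = 5 each), passed as lower under 3 of 4 other scalings. The endothelial markers did not all go 1 way, as 3 of the 8 had a positive log2 fold change (list median -0.18). The fibroblast sum was 289 to 406 FPKM in PAMH and 340 to 376 FPKM in control hearts, and the macrophage sum 177 to 225 and 177 to 220 FPKM in PAMH and control hearts. The part of these cell types in the change of Myh7 was not tested.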

How the data were processed

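Per the file name and the labels, the authors deposited gene-level FPKM for 5 PAMH and 5 control samples. Per the submitters' processing notes, HISAT2 2.2.1 and HTSeq 0.13.5, DESeq2 1.18.1 under R 3.4.1, Trimmomatic 0.38 and FastQC 0.11.9 were used with build mm10, without roles. Which tool made the FPKM, with which annotation and strand setting, and how multiple matches were handled is not given in the sources used here. Among genes averaging 0.5 FPKM or more, 99.1% of 9588 with several annotated transcripts had values with over 6 decimals, against 1.12% of 1968 with a single one. Gene values were thus built from transcript values, whole reads could not be recovered, and depth is unknown.

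Names and coordinates came from GENCODE vM21 (GRCm38), which held 55154 of 55335 identifiers. A symbol with several identifiers was represented by the one with the highest mean. Genes averaging 1 FPKM or more (9439) were tested on log2(FPKM + 1), a scale that understates changes of low genes, with limma 3.58.1 (R 4.3.3): group term, intensity trend, two-sided, Benjamini-Hochberg over all genes, threshold 0.05. Standard errors and 95% intervals are limma's. Ratios of deposited FPKM were tested by exact two-sided permutation (scipy 1.17.1) with adjustment over 5 ratios. The procedure was tested on simulated data.

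All 9 myosin genes were named. From each list the genes past the threshold, or otherwise the 2 with the smallest p, were named, together with the 5 genes closest to Myh7. One gene that this rule names is not reported here. Nppa, Kcna5, Kcnj3, Stard10, Tbx5, Pecam1, Sln, Bmp10, Mybphl, Des, Thra, Tead1, Gm31251 and the skeletal heavy chain genes were named after their values were seen. The genes and lists were chosen with earlier results of these data known. Alternatives covered pseudocount, filter, scaling, replicate number and omission of samples. Figures were drawn with matplotlib 3.10.9.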

Additional observations from a re-analysis of the deposited data

Results flagged for a closer look

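Of 27 groups of values examined (each gene and ratio in each group of 5), 2 had a sample far from the others by Dixon's criterion, where chance flags about 1 group in 20. Both were control replicate 2. Its Myh6 was 1809.9 FPKM, against 1272 to 1384 FPKM in the other control samples. Its ratio of Mylk3 to Myl2 was 3.57%, against 4.17% to 4.37% in the others. Without it the log2 ratio of Mhrt to Myh6 was -0.12 (exact permutation p = 0.270).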

How the results depend on the processing

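Myh7 kept its direction and its call under all 19 alternatives, of which omission of PAMH replicates 4 and 5 together was chosen after seeing the data. The counts of calls over all genes were less stable. No filter gave 196 higher and 68 lower genes, the filter at 5 FPKM 75 lower, the same non-mitochondrial sum 216 and 210, median ratio scaling 218 and 212, quantile normalization 234 and 246, and omission of PAMH replicates 4 and 5 together 279 higher. Leaving out 1 sample gave 206 to 979 higher and 69 to 147 lower genes. The higher count, 467 with all samples, was 979 without PAMH replicate 3, 225 and 262 without PAMH replicates 1 and 5, and 232, 206, 232 and 228 without control replicates 1, 3, 4 and 5. Samples with the same replicate number did not deviate together (r -0.19 to 0.16, over 0.1 in 1 of 5 pairs, 2 of 5 PAMH samples closest to their own number), and the replicate block gave 175 higher and 64 lower genes.

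The log2 ratios of Myh7 to Myh6 and of Mhrt to Myh7 were 0.88 to 1.21 and -1.17 to -0.90 with 1 sample left out, each past the threshold. Under the replicate block they were 1.06 and -1.04 with p = 0.0625, the smallest an exact permutation of 5 pairs can give (adjusted p = 0.156). Without PAMH replicates 4 and 5 they were 1.04 and -1.01. The exact permutation p was 0.0357 for each, the smallest that 3 against 5 samples can give (adjusted p = 0.0893). Signs turned for genes and ratios with no call. With the same non-mitochondrial sum and with median ratio scaling Myh6 had -0.052 and -0.036, Myl3 -0.11 and -0.094, and Mhrt -0.038 and -0.022 (-0.052 with quantile normalization). With 1 sample left out Myh6 ran from -0.018 to 0.15, Myl3 from -0.058 to 0.069 (-0.088 without PAMH replicates 4 and 5), Mhrt to Myh6 from -0.12 to 0.10, and Mylk3 to Myl2 from -0.088 to 0.052 (0.082 without both). The cause was not tested. The planned ratio of Myl7 to Myl2, and the genes closest to Myl7, could not be computed because Myl7 was listed at 0 in 8 samples. Depth is unknown, so no limit of detection can be given for Myl4, Myl7 or the hairpins.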

Other observations

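After subtraction of the group means, the genes whose log2(FPKM + 1) followed Myh7 most closely over the 10 samples were Aven, Mrpl40, Pecr, Trim27 and Mettl1, with Pearson r of 0.95, 0.92, 0.92, 0.91 and 0.89, the top 5 of 8401 protein-coding genes ranked. None of these 5 passed between the groups (limma adjusted p from 0.0778 for Mettl1 to 0.846 for Pecr). The values describe these samples only, as the highest of so many, and share library and scale.

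Genes near the myosins held values in separate levels, none of which followed the groups. Tead1, whose protein binds the MCAT motif, was named after its values were seen. It had 5.07, 9.66 and 9.20 FPKM in PAMH replicates 2, 3 and 5 and 8.77 FPKM in control replicate 3, and between 0.970 and 1.55 FPKM in the other 6 samples (limma adjusted p = 0.419). Myl12b had 14.6 and 18.4 FPKM in PAMH replicates 5 and 2 with 28.9 to 37.4 FPKM in PAMH replicates 1, 3 and 4. In control hearts it had 15.3 to 19.2 FPKM in replicates 1, 2 and 5 and 36.2 to 36.9 FPKM in replicates 3 and 4. Tead1 and Myl12b each have several annotated transcripts, and these were not measured separately.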
